A study of Mus musculus with 8 samples.

Results

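The 10 genes described here carry glucose into the cell and through glycolysis: the transporters Slc2a1 and Slc2a3, the hexokinases Hk1 and Hk2, the phosphofructokinases Pfkl and Pfkp with their activator enzyme Pfkfb3, and Aldoa, Pkm and Ldha of the steps after phosphofructokinase. They were chosen by symbol among the 47729 genes of the deposited tables. All 10 were found, and all 10 were among the 13397 genes with enough counts to be tested. The RNA came from γδ T cells, T cells that carry the γδ form of the antigen receptor, sorted from visceral adipose tissue of C57BL/6 mice. The labels give 4 samples from mice fed a ketogenic diet (KD), low in carbohydrate and high in fat, and 4 samples from mice on control chow. The series text gives a feeding time of 1 week for both diets. Age, sex and any pooling of mice are not stated in the labels, so p-values rest on differences among these 8 samples that may be only technical.

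Glucose enters T cells down its gradient through GLUT transporters and is trapped by hexokinase as glucose-6-phosphate. Phosphofructokinase then commits it to glycolysis, and pyruvate kinase and lactate dehydrogenase close the pathway with pyruvate and lactate. Activated T cells raise this pathway through Myc, mTOR and the hypoxia factor HIF-1α, and resting or fat-burning T cells rely on it less.

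Libraries held 19796112 to 26572315 counts in KD and 23940797 to 31926427 counts in chow. The γδ T cell markers used (Trdc, Cd3d, Cd3e, Cd3g and Cd247) summed to 7659 to 8703 CPM in KD and 7824 to 8028 CPM in chow, where CPM is counts scaled to a common library size. Cd4 had 0 counts in all 8 libraries, and Trac, the αβ receptor constant gene, stood at 86.5 to 128 CPM in KD and 51.9 to 88.1 CPM in chow. RNA of other fat cells was uneven. The 8 endothelial markers summed to 55.9, 63.3, 459 and 832 CPM in KD replicates 1 to 4 and to 59.8 to 136 CPM in chow. Single genes weighed heavily in these sums. The largest part was Pecam1 in KD replicates 1 and 2 (45.0 and 52.8 CPM) and Fabp4 in KD replicates 3 and 4 (216 and 386 CPM). Which cell type that Fabp4 RNA came from was not tested. Cdh5 was at 1.24, 1.66, 8.34 and 4.68 CPM in KD replicates 1 to 4. The 10 stromal and mesothelial markers summed to 26.3, 481, 295 and 288 CPM in KD replicates 1 to 4 and to 19.4, 10.9, 22.2 and 178 CPM in chow replicates 1 to 4. Of these 10 markers 8 were tested and 1 rose in KD, beside 0.328% of all tested genes. The gene that rose was Krt19, a keratin of mesothelial and other epithelial cells. It was at 1.33, 9.94, 7.48 and 4.86 CPM in KD replicates 1 to 4, against 0.0749 CPM or less in each chow replicate (adjusted p = 0.0247, edgeR). Adipocyte markers summed to 2.03 to 20.9 CPM in KD and 1.09 to 7.36 CPM in chow, with Adipoq, the adipocyte's hormone, at 0 counts in 7 libraries. Macrophage and monocyte markers summed to 2.57 to 28.1 CPM in KD and 2.97 to 88.2 CPM in chow, and erythroid markers to 84.3 to 498 CPM in KD and 3.26 to 459 CPM in chow. In bulk RNA, fewer cells of a type and less RNA per cell cannot be told apart.

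Promoter windows are shown for the hexokinase pair, whose shares did not overlap between the diets, and for Ldha, the most abundant of the 10 transcripts. Each runs from 250 bases before to 50 bases after a RefSeq start (GRCm38.p6), read 5′ to 3′ on the gene's strand. Capitals mark ACGTG or GCGTG on either strand, the core letters bound by hypoxia factors, which include the E-box CACGTG bound by Myc and related factors. The windows are chr6:82774405-82774704 on the minus strand for Hk2, chr10:62379859-62380158 and chr10:62340372-62340671 on the minus strand for the outer and inner starts of Hk1, and chr7:46845554-46845853 on the plus strand for Ldha. Which start these cells use was not measured.
Hk2: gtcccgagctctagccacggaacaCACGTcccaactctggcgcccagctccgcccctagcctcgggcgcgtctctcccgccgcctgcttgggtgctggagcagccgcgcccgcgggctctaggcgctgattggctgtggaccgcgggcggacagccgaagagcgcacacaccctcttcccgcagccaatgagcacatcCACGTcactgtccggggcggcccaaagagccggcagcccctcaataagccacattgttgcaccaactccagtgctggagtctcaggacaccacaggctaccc
Hk1 outer start: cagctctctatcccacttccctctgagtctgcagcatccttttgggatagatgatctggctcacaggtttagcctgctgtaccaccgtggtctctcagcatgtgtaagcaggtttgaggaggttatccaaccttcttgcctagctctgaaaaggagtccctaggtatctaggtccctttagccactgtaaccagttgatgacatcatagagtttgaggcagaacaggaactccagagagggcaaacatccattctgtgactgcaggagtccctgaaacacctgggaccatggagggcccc
Hk1 inner start: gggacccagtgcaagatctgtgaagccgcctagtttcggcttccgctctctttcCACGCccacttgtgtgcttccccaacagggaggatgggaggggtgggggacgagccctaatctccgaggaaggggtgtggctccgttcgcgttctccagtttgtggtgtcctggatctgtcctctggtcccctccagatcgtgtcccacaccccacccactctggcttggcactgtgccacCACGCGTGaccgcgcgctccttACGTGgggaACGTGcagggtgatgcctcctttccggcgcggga
Ldha: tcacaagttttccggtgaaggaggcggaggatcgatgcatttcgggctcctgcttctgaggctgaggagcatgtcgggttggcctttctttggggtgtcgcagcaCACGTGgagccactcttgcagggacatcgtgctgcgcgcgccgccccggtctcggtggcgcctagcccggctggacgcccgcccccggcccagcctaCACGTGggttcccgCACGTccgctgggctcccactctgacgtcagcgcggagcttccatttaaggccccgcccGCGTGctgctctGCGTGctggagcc

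The Hk2 window held ACGTG at 226 and 52 bases before the start, both on the opposite strand, and no GCGTG. The outer Hk1 window held none of the motifs and the inner one held both cores. The Ldha window shown held CACGTG at 145 and 48 bases before the start. Another Ldha window, chr7:46846832-46847131, is not shown. It held GCGTG but no ACGTG and no CACGTG. RefSeq windows matched 9 of the 10 genes (15 windows), and Slc2a3 is named only. ACGTG lay in 9 of these 15 windows and in 19.6% of all 32851 windows, GCGTG in 7 of 15 and 32.4%, and CACGTG, every match of which also holds ACGTG, in 2 of 15 and 7.15%. The windows of 1 gene can overlap: 2 Aldoa windows share a single ACGTG, which the 9 counts in both. The 15 windows had a median GC content of 64.7%, against 52.7% over all windows. A match describes letters and does not show a bound site.

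Across the 10 genes, the log2 fold changes (KD over chow) were -0.95 for Hk2, -0.38 for Slc2a1 and -0.37 for Slc2a3, short of the threshold, and between -0.19 and 0.0064 for the other 7. None of the 10 passed in edgeR's quasi-likelihood test (0 called, adjusted p under 0.05 after Benjamini-Hochberg over all genes), where 0.508% of all tested genes were called (0.328% higher and 0.179% lower in KD). At an unadjusted p under 0.05 there were 2, Hk2 and Slc2a3, both lower in KD, where 8.64% of all genes passed and 4.16% were lower in KD. DESeq2 called 1 of the 10, Hk2, and 292 genes in all. The number called by edgeR over all genes, 68, was 12 to 44 without single libraries and 4 without KD replicates 3 and 4. The log2 fold change was below 0 for 9 of the 10, beside 49.1% of all genes tested, and its median was -0.13, beside 0.0065 over all genes. The exception, Pfkp, had a value next to 0 (0.0064). Values near 0 also stood among the 9: Pfkl (-0.0035), Ldha (-0.021) and Pkm (-0.042). The number below 0 ran from 7 to 10 without single libraries and was 6 without KD replicates 3 and 4.

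**Figure D1:**
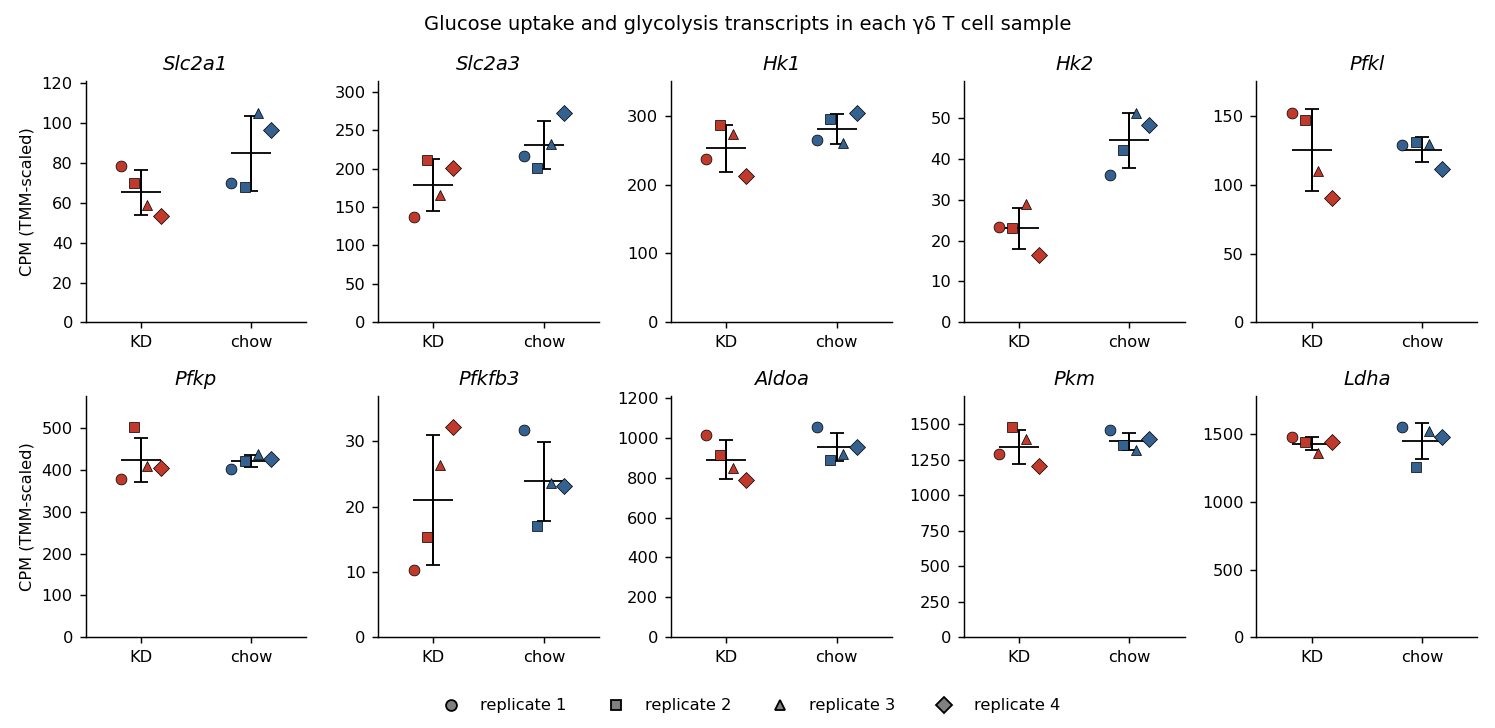
Level of each of the 10 transcripts in every γδ T cell sample, in CPM on axes that start at 0; red points are KD samples, blue points chow samples, marker shapes the replicate numbers, and black bars the mean ± SD (n = 4 each). Only for Hk2 do the KD samples (16.5 to 28.8 CPM) all lie below the chow samples (36.0 to 51.3 CPM).

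Hk2, the inducible hexokinase of activated T cells, showed the largest difference of the 10. It lies at chr6:82725025-82774454 on the minus strand (GRCm38, GENCODE M21). Its level was 23.4, 23.1, 28.8 and 16.5 CPM in KD replicates 1 to 4, against 36.0, 42.2, 51.3 and 48.3 CPM in chow replicates 1 to 4. Every KD sample was below every chow sample, as for 2.75% of all tested genes in that direction and 6.05% in either direction. The mean was 23.0 ± 5.03 CPM in KD and 44.4 ± 6.76 CPM in chow (SD, n = 4 each). The log2 fold change was -0.95 (SE 0.20, 95% interval -1.39 to -0.52), or 0.517-fold, with an unadjusted p = 0.000631 that ranked 99 among all genes and an adjusted p = 0.0847 (edgeR). DESeq2 gave the same log2 value, -0.95, with an adjusted p = 0.0014, a filter of 5 CPM in 4 samples gave edgeR's adjusted p = 0.036, and voom with sample weights gave adjusted p = 0.0459. Over all 19 settings the adjusted p ran from 0.0014 to 0.355 and the log2 fold change from -1.08 to -0.83. Without KD replicates 3 and 4, whose endothelial marker sums were the highest, it was -0.94 (adjusted p = 0.355). The counts of Hk2 were whole numbers in all 8 samples, and its exons overlap no other annotated gene.

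Hk1, the constitutive hexokinase, was the main one of the pair. It lies at chr10:62268855-62379908 on the minus strand. Its level was 238, 287, 274 and 212 CPM in KD replicates 1 to 4, against 264, 295, 260 and 305 CPM in chow replicates 1 to 4. These ranges overlapped, and the log2 fold change was -0.15 (SE 0.11, 95% interval -0.39 to 0.083, adjusted p = 0.766, edgeR). It shares 157 exonic bases with the antisense gene Hk1os, and whether reads were counted by strand is not stated in the labels. Per gene length, in FPKM (fragments per kilobase of transcript, scaled for depth), Hk1 averaged 65.1 ± 8.26 in KD and 72.7 ± 5.68 in chow, and Hk2 averaged 7.96 ± 2.62 in KD and 14.9 ± 2.36 in chow (SD, n = 4 each). The share of Hk2 in the pair was 11.4%, 9.36%, 13.9% and 8.28% of FPKM in KD replicates 1 to 4, against 15.6%, 14.6%, 18.9% and 18.9% in chow replicates 1 to 4. The shares of the diets did not overlap, with means of 10.7% ± 2.47 in KD and 17.02% ± 2.22 in chow. This is a description without a test, since the genes were chosen with earlier results of these data known. Summed hexokinase FPKM, Hk3 included, was 69.8, 81.6, 81.8 and 60.03 in KD replicates 1 to 4, against 81.3, 91.8, 83.1 and 95.02 in chow replicates 1 to 4. Those sums overlap between the diets.

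Other hexokinases were scarce. Hk3, a hexokinase of myeloid cells, reached at most 2.6 CPM in a KD library and 1.04 CPM in a chow library. Hkdc1, which encodes a hexokinase domain protein, had 0 counts in all 8 libraries, so a level under 0.0947 to 0.152 CPM (3 counts of each library, counting error only) was not detectable at this depth.

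**Figure D2:**
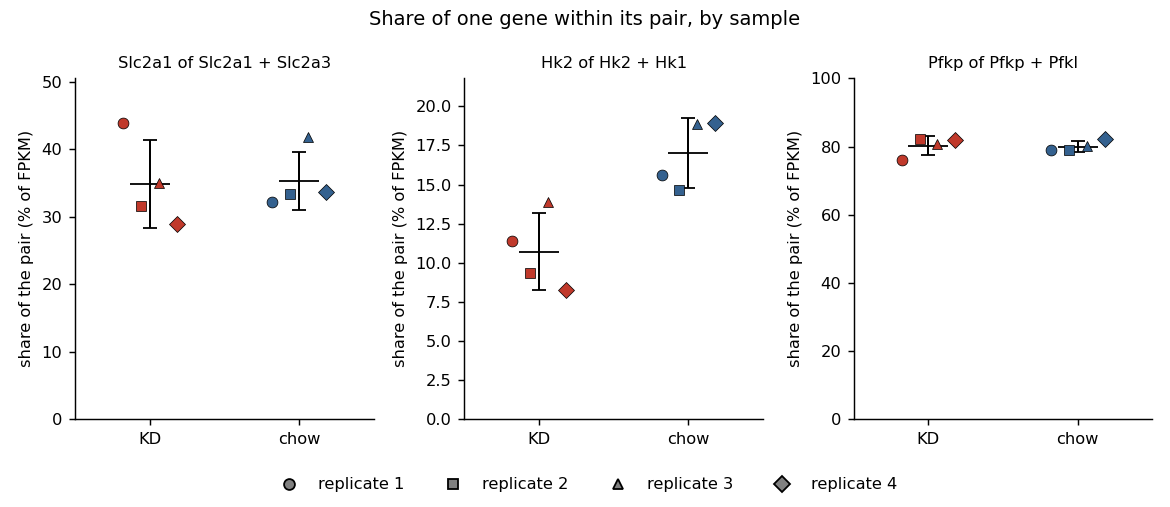
Share of Slc2a1, Hk2 and Pfkp within its pair in every sample, as percent of the pair's summed FPKM, with KD samples in red, chow samples in blue and mean ± SD in black (n = 4 each). The Hk2 share averages 10.7% in KD and 17.02% in chow without overlap, and the shares of Slc2a1 and Pfkp overlap between the diets.

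The transporters had similar point estimates below 0. Slc2a3 encodes GLUT3, the high-affinity glucose transporter of neurons and lymphocytes, at chr6:122727809-122801640 on the minus strand. Its level was 137, 211, 165 and 200 CPM in KD replicates 1 to 4, against 217, 201, 232 and 273 CPM in chow replicates 1 to 4. KD replicate 2 lay within the chow range, KD replicate 4 just below it and KD replicates 1 and 3 well below it. Its log2 fold change was -0.37 (SE 0.15, 95% interval -0.69 to -0.047, unadjusted p = 0.0286, adjusted p = 0.504, edgeR). Without single libraries it ran from -0.46 to -0.26, and without KD replicates 3 and 4 it was -0.41 (adjusted p = 0.806).

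Slc2a1 encodes GLUT1, the transporter that activated T cells bring to their surface and that endothelium and red cells also carry, at chr4:119108711-119137983 on the plus strand. Its level was 78.7, 69.8, 58.8 and 53.6 CPM in KD replicates 1 to 4, against 70.1, 67.9, 105 and 96.3 CPM in chow replicates 1 to 4. KD replicates 1 and 2 stood with chow replicates 1 and 2, while KD replicates 3 and 4 were the lowest samples. Its log2 fold change was -0.38 (SE 0.18, 95% interval -0.78 to 0.019, adjusted p = 0.605, edgeR), and -0.20 without KD replicates 3 and 4. The low values of Slc2a1 in KD replicates 3 and 4 stood beside the highest endothelial sums (459 and 832 CPM). Erythroid marker sums were 111, 84.3, 498 and 315 CPM in KD replicates 1 to 4. In chow replicates 1 to 4 the erythroid sums were 30.6, 3.26, 459 and 227 CPM. The part of endothelial or erythroid RNA in the result was not tested. Slc2a1 shares 105 exonic bases with the antisense gene Gm12868.

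Per gene length Slc2a3 was the more abundant transporter in every sample. Slc2a3 averaged 48.1 ± 8.81 FPKM in KD and 60.5 ± 7.35 FPKM in chow, and Slc2a1 averaged 25.4 ± 3.57 FPKM in KD and 33.4 ± 7.94 FPKM in chow (SD, n = 4 each). The share of Slc2a1 in the pair was 34.9% ± 6.53 of FPKM in KD and 35.3% ± 4.35 in chow, with overlap. Of the other transporters, Slc2a8, an intracellular hexose transporter, averaged 16.1 ± 2.77 FPKM in KD and 20.07 ± 4.22 FPKM in chow. Slc2a4, the insulin-regulated transporter of fat and muscle, reached 3.49 CPM in KD replicate 3 and at most 0.833 CPM in the other libraries.

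Phosphofructokinase transcripts showed no shift beyond the spread. Pfkp, the platelet-type subunit that lymphocytes also use, lies at chr13:6579768-6648777 on the minus strand. Its level was 380, 502, 409 and 406 CPM in KD replicates 1 to 4, against 403, 422, 439 and 426 CPM in chow replicates 1 to 4. KD replicate 2 was the highest of all samples and KD replicate 1 the lowest. Its log2 fold change was 0.0064 (SE 0.091, 95% interval -0.20 to 0.21, adjusted p = 0.995, edgeR). Its sign changed with the setting, and it shares 748 exonic bases with Pitrm1 on the other strand.

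Pfkl, the liver-type subunit, lies at chr10:77986947-78010083 on the minus strand. Its level was 152, 147, 110 and 90.4 CPM in KD replicates 1 to 4, against 129, 131, 130 and 112 CPM in chow replicates 1 to 4. KD samples lay on both sides of chow, KD replicates 1 and 2 above it and KD replicates 3 and 4 below it. Its log2 fold change was -0.0035 (SE 0.16, 95% interval -0.36 to 0.35, adjusted p = 0.997, edgeR), and 0.25 (unadjusted p = 0.0468, adjusted p = 0.748) without KD replicates 3 and 4. Pfkp made up 80.3% ± 2.79 of the pair's FPKM in KD and 80.03% ± 1.56 in chow. Pfkm, the muscle-type subunit, stayed at or below 1.87% of the summed FPKM of all 3 subunits in every sample.

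Pfkfb3, the enzyme that makes fructose-2,6-bisphosphate and so activates phosphofructokinase, was on average the least abundant of the 10 and the most variable. It lies at chr2:11471433-11554077 on the minus strand. Its level was 10.2, 15.3, 26.3 and 32.1 CPM in KD replicates 1 to 4, against 31.8, 17.04, 23.6 and 23.2 CPM in chow replicates 1 to 4. KD samples reached both below and above the chow range. Its log2 fold change was -0.19 (SE 0.35, 95% interval -0.96 to 0.58, adjusted p = 0.948, edgeR). It was -0.91 (unadjusted p = 0.022, adjusted p = 0.658) without KD replicates 3 and 4, and 0.038 without KD replicate 1. The KD libraries rich in Pfkfb3, replicates 3 and 4, had endothelial sums of 459 and 832 CPM, and chow replicate 1, the richest in chow, had the highest chow sum, 136 CPM. Fabp4 alone was 216 and 386 CPM of the sums in KD replicates 3 and 4, and which cell type it came from was not tested. Pecam1, also in the sums, was at 121 and 108 CPM there, against 45.0 and 52.8 CPM in KD replicates 1 and 2. Adipocyte marker sums were 9.82, 2.03, 20.9 and 18.2 CPM in KD replicates 1 to 4. In chow replicates 1 to 4 they were 7.36, 1.09, 7.07 and 5.9 CPM. These adipocyte sums were thus also highest in KD replicates 3 and 4 and, within chow, in replicate 1. Endothelium is known to express Pfkfb3, and the part of endothelial or adipocyte RNA in these values was not tested.

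**Figure D3:**
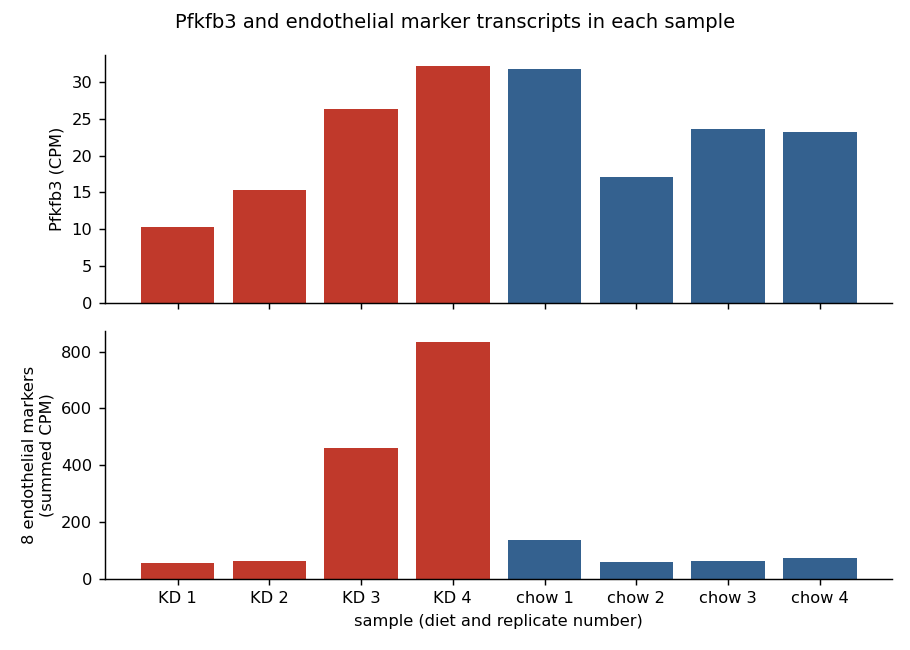
Pfkfb3 in CPM (upper panel) and the summed CPM of 8 endothelial markers (lower panel) in every sample, KD in red and chow in blue, 1 bar per sample. KD replicates 3 and 4 are the highest KD samples in both panels (26.3 and 32.1 CPM of Pfkfb3, 459 and 832 CPM of the markers), and chow replicate 1 is the highest chow sample in both (31.8 and 136 CPM). Adipocyte marker sums, not drawn, were also highest in these samples within each diet.

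Ldha, Pkm and Aldoa, of the steps after phosphofructokinase, were abundant and nearly level. Ldha, the lactate dehydrogenase subunit that favours lactate formation, lies at chr7:46841475-46855627 on the plus strand. Its level was 1478, 1443, 1360 and 1441 CPM in KD replicates 1 to 4, against 1550, 1257, 1521 and 1476 CPM in chow replicates 1 to 4. All KD samples lay inside the chow range. The log2 fold change was -0.021 (SE 0.075, adjusted p = 0.978, edgeR), with a 95% interval of 0.878- to 1.11-fold.

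Pkm, which encodes pyruvate kinase M and yields the PKM1 and PKM2 forms by a choice between alternative exons, lies at chr9:59656368-59679375 on the plus strand. Its level was 1289, 1478, 1395 and 1206 CPM in KD replicates 1 to 4, against 1459, 1354, 1319 and 1394 CPM in chow replicates 1 to 4. KD samples lay on both sides of the chow range, and the log2 fold change was -0.042 (SE 0.075, adjusted p = 0.946, edgeR), with a 95% interval of 0.866- to 1.09-fold. The tables give genes and not exons, so the PKM forms were not separated. Pkm shares 767 exonic bases with the annotated gene Gm49759 on the same strand, for which the authors gave no counts.

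Aldoa, the aldolase that splits fructose-1,6-bisphosphate, lies at chr7:126795234-126800751 on the minus strand. Its level was 1014, 913, 849 and 786 CPM in KD replicates 1 to 4, against 1052, 889, 917 and 951 CPM in chow replicates 1 to 4. KD replicates 3 and 4 lay below the chow range and the others inside it. The log2 fold change was -0.097 (SE 0.090, adjusted p = 0.855, edgeR), with a 95% interval of 0.814- to 1.07-fold. It was 0.014 without KD replicates 3 and 4. Aldoa shares 25 exonic bases with Fam57b on the other strand. Estimated counts were not whole in all 8 samples for Ldha, Pkm, Aldoa, Pfkp and Slc2a1 and in 7 samples for Hk1, the form such counts take where reads are divided among similar sequences, so the levels of these 6 genes are less certain.

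**Figure D4:**
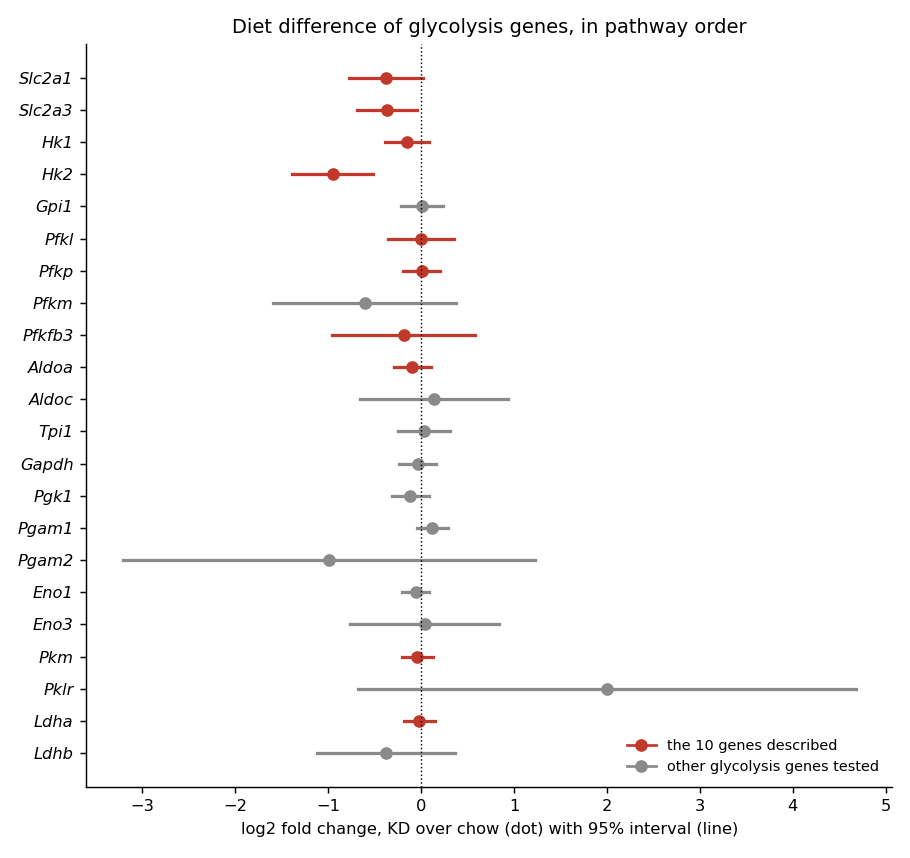
Log2 fold change of KD over chow (dots) with its 95% interval (lines) for the 10 genes (red) and the other glycolysis genes tested (grey), in pathway order from transport at the top to lactate at the bottom. Hk2 (-0.95, interval -1.39 to -0.52) and Slc2a3 (-0.37, interval -0.69 to -0.047) have intervals wholly below 0, which overlap each other; the scarce Pklr (2.0004) and Pgam2 (-0.99) lie as far out or farther with wide intervals that include 0, and Aldoa, Pkm and Ldha lie between -0.097 and -0.021 with narrow ones.

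Per gene length the 10 transcripts spanned a wide range, lowest for Pfkfb3 and Hk2. Mean FPKM over all 8 samples was 968 for Ldha, 664 for Aldoa, 577 for Pkm, 170 for Pfkp, 68.9 for Hk1, 54.3 for Slc2a3, 42.1 for Pfkl, 29.4 for Slc2a1, 11.4 for Hk2 and 5.57 for Pfkfb3. Ldha had the 79th highest mean FPKM among tested genes, and Hk2 lay above 52.6% of them. The ranges over all samples of Ldha (872 to 1037 FPKM) and Aldoa (567 to 754 FPKM) did not overlap, while those of Aldoa and Pkm (509 to 627 FPKM), Hk1 (55.1 to 78.4 FPKM) and Slc2a3 (38.1 to 70.7 FPKM), and Slc2a3 and Pfkl (34.2 to 47.8 FPKM) did. Slc2a1 (21.7 to 43.5 FPKM) overlapped Pfkl and Slc2a3, and Hk2 (4.97 to 17.9 FPKM) overlapped Pfkfb3 (2.19 to 9.48 FPKM). In KD replicate 4 Pfkfb3 was above Hk2 (7.26 and 4.97 FPKM). At several steps 1 gene supplied nearly all of the transcript. Aldoa made up at least 98.8% of aldolase FPKM, Ldha at least 97.9% of lactate dehydrogenase and Pkm at least 99.9% of pyruvate kinase in every sample. The authors' FPKM carries a gene length that varied between samples. Count divided by FPKM implies 2537 to 3309 bases for Hk2 in KD and 2627 to 3259 bases in chow, so part of the sample-to-sample spread of its FPKM comes with that length.

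**Figure D5:**
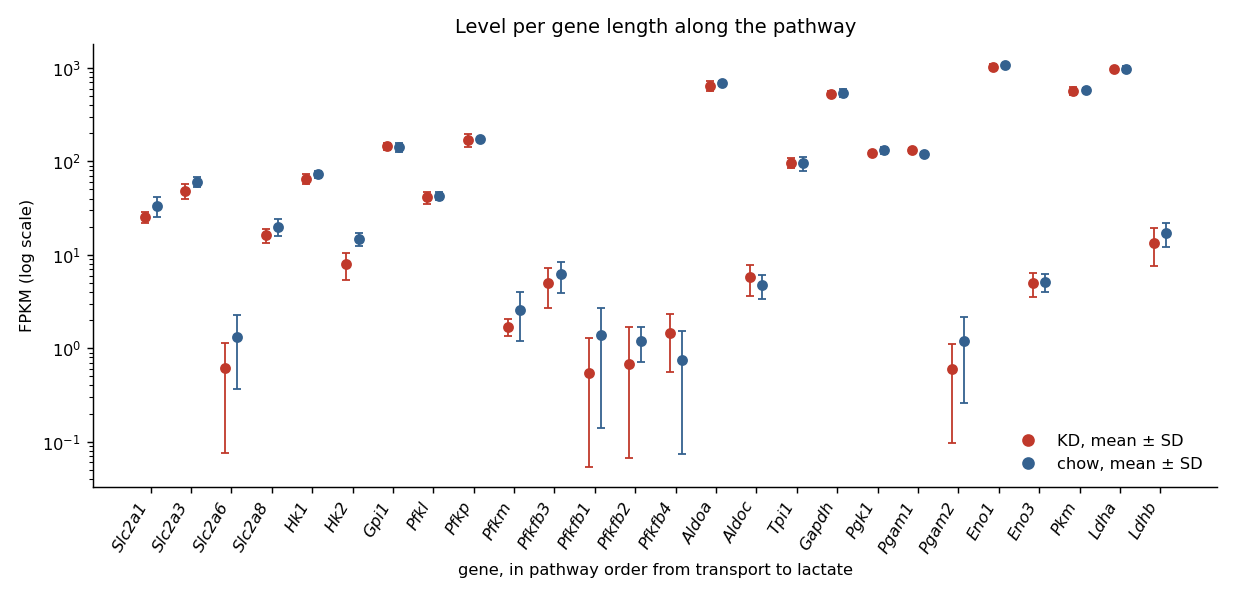
Mean ± SD of FPKM on a log axis for glycolysis genes with a mean of at least 1 FPKM in either diet, in pathway order, KD in red left of chow in blue (n = 4 each; a lower bar that would reach near or below 0 is cut short). Eno1, an enolase, is the highest (1024 FPKM in KD and 1061 FPKM in chow), Ldha follows (963 FPKM in KD and 974 FPKM in chow), and the pair of points is visibly apart for Hk2 (7.96 and 14.9 FPKM).

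The other genes of the pathway had log2 fold changes on both sides of 0. Of 17 listed, 12 were tested, and 0 rose and 0 fell in edgeR's test (0 also at an unadjusted p under 0.05, and 0 in DESeq2), with 6 log2 fold changes below 0 and a median of -0.011. Gapdh, the dehydrogenase of the payoff phase, was at 643 ± 37.7 CPM in KD and 659 ± 74.5 CPM in chow. Pgam1, a phosphoglycerate mutase, was at 230 ± 12.3 CPM in KD and 212 ± 12.4 CPM in chow (log2 fold change 0.12, adjusted p = 0.727, edgeR). Pgk1, a phosphoglycerate kinase, had -0.12 (adjusted p = 0.806). Values farther from 0 belonged mostly to scarce transcripts. Pklr, the liver and red cell pyruvate kinase, was at 0.712 ± 0.527 CPM in KD and 0.177 ± 0.195 CPM in chow (log2 fold change 2.0004, 95% interval -0.68 to 4.68, adjusted p = 0.712, edgeR). Pgam2, the muscle mutase, had -0.99 (adjusted p = 0.876) and Pfkm had -0.61 (adjusted p = 0.79). Ldhb, the other lactate dehydrogenase subunit, was less scarce (14.0 ± 5.32 CPM in KD and 18.2 ± 5.51 CPM in chow) and had -0.38 (adjusted p = 0.848, edgeR).

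Lactate leaves T cells through monocarboxylate transporters of the SLC16 family with the chaperone basigin. Slc16a3, which encodes the exporter MCT4, stood at 85.7, 91.9, 82.6 and 91.3 CPM in KD replicates 1 to 4, against 104, 98.05, 107 and 115 CPM in chow replicates 1 to 4. Every KD sample was below every chow sample, as for 2.75% of all tested genes in that direction and 6.05% in either direction. The log2 fold change was -0.27 (SE 0.093, unadjusted p = 0.0167, adjusted p = 0.41, edgeR). Bsg, which encodes basigin, was at 338 ± 14.8 CPM in KD and 313 ± 16.6 CPM in chow (adjusted p = 0.731), also without overlap. Slc16a1, which encodes MCT1, was at a log2 fold change of 0.29 (adjusted p = 0.84) and Slc2a8 of -0.28 (adjusted p = 0.747). Of the 7 transporters tested among 13 listed, 0 were called in either direction (0 also in DESeq2), and the median was -0.27. At an unadjusted p under 0.05 (edgeR) there was 1, beside 8.64% of all genes tested.

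Among 13 tested regulators of glucose uptake (15 listed), 1 fell and 0 rose, beside 0.179% of all genes that fell. The gene that fell was Myc, the growth factor-induced driver of glycolytic genes. Its level was 79.5, 112, 72.7 and 86.5 CPM in KD replicates 1 to 4, against 162, 187, 130 and 157 CPM in chow replicates 1 to 4. Its samples did not overlap, as for 2.75% of all tested genes with KD lower. The log2 fold change was -0.86 (SE 0.15, adjusted p = 0.0463, edgeR). Without single libraries its log2 fold change ran from -1.001 to -0.77 and the adjusted p from 0.0397 to 0.161; without KD replicates 3 and 4 it was -0.73 (adjusted p = 0.503). It stayed under 0.05 among these fits only without KD replicate 2. Irf4, a factor of T cell activation, stood at a log2 fold change of 0.87 (adjusted p = 0.45), with 110 CPM in KD replicate 4 and 35.4 to 51.4 CPM in the other KD samples, against 28.99 to 43.7 CPM in chow. Mlxip, which encodes a glucose-sensing factor, had -0.17, Tsc2, which encodes a brake on mTOR, had -0.20, and Prkaa1, which encodes a catalytic subunit of AMP kinase, had -0.19, and none of these passed. In the list 2 genes had an unadjusted p under 0.05 (edgeR), beside 8.64% of all genes tested, and the median log2 fold change was -0.12.

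The hypoxia factor and its targets outside glycolysis held no called gene. Of 19 tested genes 0 were called (0 also in DESeq2), 11 had a log2 fold change below 0 and the median was -0.087. At an unadjusted p under 0.05 (edgeR) there were 3, beside 8.64% of all genes tested. Vegfa, the vascular growth factor, was at 2.1, 4.67, 4.8 and 2.64 CPM in KD replicates 1 to 4, against 3.39, 9.25, 15.6 and 10.5 CPM in chow replicates 1 to 4 (log2 fold change -1.44, adjusted p = 0.399, edgeR). Egln1, an oxygen-sensing hydroxylase, had -0.98 (adjusted p = 0.472), Vhl, which marks HIF for destruction, had -0.24 (adjusted p = 0.667), and Mxi1, a Myc antagonist, had 0.57 (adjusted p = 0.325). Hif1a itself, named here after its values were seen, was at 203 ± 35.02 CPM in KD and 172 ± 43.3 CPM in chow (log2 fold change 0.23, adjusted p = 0.808).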

How the data were processed

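Bulk RNA sequencing of sorted γδ T cells was deposited by the authors as estimated counts per gene (expected counts, not all whole) and as FPKM values for the same 8 samples, per the labels and file headers. BWA, TopHat2, RSEM, DESeq2 and GRCm38 are named in the submitters' processing notes, without versions or roles. The count table held 27 symbols that read as dates, and 27 were restored from Ensembl identifiers.

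Counts were rounded and filtered by edgeR's filterByExpr (minimum count 10, minimum total 15), and libraries were scaled by TMM. All tested genes entered edgeR's robust quasi-likelihood F test of KD against chow without covariates; its two-sided p was adjusted by Benjamini-Hochberg and called under 0.05. The SE was taken from each fold change and F value. Versions were 4.3.3 for R, 4.0.16 for edgeR, 1.42.0 for DESeq2 and 3.58.1 for limma. The test was also tried on simulated data. A floor of 3 counts covers counting error alone, as molecules were not tagged.

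Gene positions are from GENCODE M21 by Ensembl identifier, 5 of the 10 with another version number there; the authors' annotation release is not stated in the labels. The 10 genes and all lists were chosen with earlier results of these data known. Named are the 10 genes and, of each list other than cell type markers, every called gene and genes among the 4 with the smallest p, with others of a step for their level or their fold change.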

Additional observations from a re-analysis of the deposited data

Results flagged for a closer look

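In groups of 4 samples, a sample was set apart where its gap to the nearest other sample took up most of the group's range (above Dixon's 95% critical value). Of 116 groups examined, 10 held such a sample, and chance sets a sample apart in about 1 in 20 groups. Among the 10 genes, Pfkl was at 112 CPM in chow replicate 4, below the other chow samples (129 to 131 CPM). Pfkp was at 208 FPKM in KD replicate 2, above the other KD samples (153 to 161 FPKM), and Aldoa at 754 FPKM in chow replicate 1, above the other chow samples (656 to 666 FPKM). Slc2a1 made up 41.8% of the FPKM of Slc2a1 and Slc2a3 in chow replicate 3, above the other chow samples (32.3% to 33.7%).

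In the neighbouring lists, Bsg was lowest in chow at 288 CPM (replicate 2) and Slc16a1 highest in chow at 59.5 CPM (replicate 3). Pdk3 was lowest in KD at 36.4 CPM (replicate 1), and Pgd highest in chow at 84.5 CPM (replicate 2). Chow replicate 4 held the highest chow sums of stromal and mesothelial markers (178 CPM) and of macrophage and monocyte markers (88.2 CPM).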

How the results depend on the processing

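The count of 68 genes called was 108 with a filter of 5 CPM in 4 samples, 292 with DESeq2, 126 and 119 with limma on log2(FPKM + 1) and log2(FPKM + 0.1), 12 with the replicate block and 4 without KD replicates 3 and 4. Without KD replicates 1 to 4 in turn it was 21, 21, 20 and 22, and without chow replicates 1 to 4 in turn 44, 34, 21 and 12. Fits without a library had fewer samples; the cause of the other shifts was not tested. The number of the 10 genes called was 1 (Hk2) instead of 0 with the 5 CPM filter (-0.95, adjusted p = 0.036), DESeq2 (-0.95, adjusted p = 0.0014) and voom sample weights (-1.001, adjusted p = 0.0459), and 0 without any single library, where the log2 fold change of Hk2 ran from -1.08 to -0.83. The replicate block gave Hk2 -0.96 (adjusted p = 0.205). Same-numbered samples had correlations of deviations of -0.114, 0.0405, -0.106 and 0.0536, and no KD sample correlated best with its own number. These weak correlations showed no pairing by number. Whether same-numbered samples shared a day or batch is not stated in the labels and was not tested otherwise.

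Signs next to 0 turned. Pfkl was 0.0019 with library size only, 0.0016 with voom weights and 0.25 without KD replicates 3 and 4, and -0.11 to 0.12 without single libraries. Pfkp was -0.0036 without a filter, -0.0013 with the block, -0.030 with limma at either pseudocount (-0.0296 and -0.0299), and -0.088 to 0.056 without single libraries. Without KD replicates 3 and 4 Aldoa was 0.014 and Ldha 0.0064. Without single libraries Ldha ran from -0.084 to 0.012, Pkm from -0.094 to 0.0027 and Pfkfb3 from -0.47 to 0.038. Shares of counts in place of FPKM were 27.1% in KD and 26.7% in chow for Slc2a1, 13.7% in chow for Hk2, and 77.3% in KD and 77.1% in chow for Pfkp, since counts are not divided by length. The Hk2 share by counts (8.3% in KD) still did not overlap between the diets.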

Other observations

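Branches that leave glycolysis held no called gene. Of 13 listed genes of the pentose phosphate, hexosamine, glycerol phosphate and serine branches 12 were tested and 0 were called by edgeR (0 also at an unadjusted p under 0.05, and 0 in DESeq2), with a median log2 fold change of 0.045. Phgdh, the first enzyme of serine synthesis, was at 78.7 ± 2.31 CPM in KD and 90.5 ± 14.6 CPM in chow (SD, n = 4 each; adjusted p = 0.723, edgeR). Taldo1, the transaldolase of the pentose phosphate branch, was at 298 ± 23.7 CPM in KD and 280.1 ± 16.8 CPM in chow (adjusted p = 0.856, edgeR).

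Of 12 listed genes for fructose-2,6-bisphosphate and brakes on glucose use 9 were tested and 0 called (0 also in DESeq2), with a median log2 fold change of -0.14. At an unadjusted p under 0.05 (edgeR) there was 1, beside 8.64% of all genes tested. Pdk3, a kinase that shuts pyruvate dehydrogenase, was at 49.1 ± 8.46 CPM in KD and 37.8 ± 3.43 CPM in chow, with a log2 fold change of 0.38 (unadjusted p = 0.0383, adjusted p = 0.544, edgeR). Txnip, an inhibitor of glucose uptake named here after its values were seen, was at 325 ± 28.1 CPM in KD and 337 ± 34.02 CPM in chow (log2 fold change -0.053, adjusted p = 0.945, edgeR).

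Spread between samples differed by diet in most of the 10 glucose genes, given here as values without a test. The coefficient of variation of CPM was larger in KD for 8 of the 10, beside 51.5% of all genes tested, with a median of 15.4% in KD and 8.49% in chow (22.2% in KD and 22.1% in chow over all genes). KD replicate 4 held the lowest value of all 8 samples for 6 of the 10 (Slc2a1, Hk1, Hk2, Pfkl, Aldoa and Pkm), beside 14.7% of all genes tested, and the highest value of Pfkfb3. That library also had the highest endothelial marker sum, 832 CPM, and the part of this RNA in the pattern was not tested. Counts of the 10 genes made up 0.483%, 0.509%, 0.467% and 0.442% of KD libraries 1 to 4, against 0.521%, 0.477%, 0.496% and 0.498% of chow libraries 1 to 4.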
